A study of Mus musculus and Rattus norvegicus with 24 samples.

Results

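The interleukin-6 (IL-6) family of cytokines, their receptors, the transcription factor Stat3 and its feedback inhibitor Socs3 were followed in the brains of mice and rats in which the middle cerebral artery had been permanently blocked (pMCAO), a model of ischaemic stroke. The 10 genes (Il6, Lif, Osm, Clcf1, Il6ra, Osmr, Lifr, Il6st, Stat3 and Socs3) were found by matching their symbols to the gene symbols of the array platforms. All 10 were among the 22180 genes measured in mouse and 9 were among the 18166 measured in rat. The rat platform lists no Il6ra, and its counterpart Il6r, a symbol that the platform does carry, is described in its place without being counted among the 9.

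RNA was measured on whole-transcript arrays, with 1 animal per array, in 24 animals. Adult male C57BL/6 mice aged 8 to 10 weeks and adult male Sprague-Dawley rats aged 8 to 12 weeks were operated under isoflurane. A filament was tied in place to block the artery, on the left in rats and on the right in mice, and sham animals had the surgery without the occlusion. A piece of 3 by 3 mm was taken from the penumbra, the rim of tissue around the ischaemic core, or from a similar region on the operated side of sham animals. The 8 groups were pMCAO and sham at 2 h and at 6 h in each species, with 3 animals in each. The penumbra piece is a mixture of all cell types there, so fewer cells of a type and less RNA per cell cannot be told apart.

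The IL-6 family signals through receptors that share one subunit, gp130, encoded by Il6st. IL-6 first binds its own receptor (Il6ra), whereas leukaemia inhibitory factor (Lif), oncostatin M (Osm) and cardiotrophin-like cytokine (Clcf1) use gp130 together with the receptors encoded by Lifr or Osmr. Bound receptors activate Janus kinases, which phosphorylate STAT3, and phosphorylated STAT3 enters the nucleus and switches on target genes. Socs3 is one of these targets, and its protein blocks signalling at gp130. In injured brain the pathway is known for acute cytokine responses and for the activation of astrocytes. Arrays measure RNA only, so receptor binding and STAT3 phosphorylation were not measured.

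Values are log2 expression values as deposited, on which a difference of 1 is a doubling. Array medians lay between 6.03 and 6.06 in mouse at 2 h, between 5.92 and 5.96 in mouse at 6 h, between 6.67 and 6.75 in rat at 2 h and between 5.82 and 5.87 in rat at 6 h. The arrays of the 2 times were thus on different scales, and each pMCAO group was therefore set against the sham group of its own time. A gene is called changed where limma's adjusted p was below 0.05, and each difference is given as pMCAO minus sham with its standard error (n = 3 against 3 animals). The standard error rests on a spread pooled over the 4 groups of a species. It is thus the same at 2 h and 6 h and is not the spread of that time alone. Array number limits the precision. In a principal component analysis of the rat arrays of 2 h, pMCAO replicate 2 stood apart, with a first component of 25.9 where the remaining pMCAO animals had 1.63 and 2.33. Sham replicate 2 of that time was shifted the same way, at -3.17 where the remaining shams had -13.8 and -12.9. At 6 h the first component was 16.6, 10.4 and 23.5 in rat pMCAO replicates 1, 2 and 3, so that replicate 2 was the nearest to the shams.

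The proximal promoters are shown first for 3 mouse genes, Osmr, Socs3 and Stat3, which rose in at least 1 species, since STAT3 acts at such sequences. RefSeq sequences of build GRCm38.p6, running from 250 bases before to 50 bases after each start site, were at hand for 8 of the 10 mouse genes, as 9 windows. The 250 bases before the start are printed 5′ to 3′ on the strand of the gene, in lower case, with a match to the STAT motif TTCNNNGAA in capitals. The Osmr promoter lies at chr15:6874314-6874563, that of Socs3 at chr11:117969367-117969616 and that of Stat3 at chr11:100939541-100939790, all on the minus strand.
Osmr: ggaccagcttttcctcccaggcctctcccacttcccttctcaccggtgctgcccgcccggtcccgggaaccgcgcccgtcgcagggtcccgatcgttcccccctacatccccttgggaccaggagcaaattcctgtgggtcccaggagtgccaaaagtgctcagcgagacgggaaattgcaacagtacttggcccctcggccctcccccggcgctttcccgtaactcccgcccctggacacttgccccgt
Socs3: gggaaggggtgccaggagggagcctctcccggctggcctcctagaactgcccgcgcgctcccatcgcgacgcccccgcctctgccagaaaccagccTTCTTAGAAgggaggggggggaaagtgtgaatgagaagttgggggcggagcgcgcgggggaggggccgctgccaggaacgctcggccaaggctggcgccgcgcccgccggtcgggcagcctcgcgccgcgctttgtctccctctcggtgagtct
Stat3: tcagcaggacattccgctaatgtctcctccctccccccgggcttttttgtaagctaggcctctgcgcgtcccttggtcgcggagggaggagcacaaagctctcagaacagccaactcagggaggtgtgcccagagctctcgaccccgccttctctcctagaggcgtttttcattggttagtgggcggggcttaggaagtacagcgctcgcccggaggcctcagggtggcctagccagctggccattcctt
The STAT motif, which reads the same on both strands, was found in 1 of the 8 genes, Socs3, as TTCTTAGAA starting 154 bases before the start site. It was present in 8.3% of all 32851 promoter windows of this length. The AP-1 motif TGANTCA, which does not overlap the STAT motif in these windows and was also searched on both strands, was found in 3 of the 8 genes: Il6 (TGAGTCA, 249 bases before the start), Lif (TGACTCA, 228 bases before) and Osmr (TGATTCA, 3 bases past the start and so outside the stretch printed). It was present in 7.81% of all windows. Stat3 held neither motif in its window. These matches describe letters in a window of 300 bases and are not evidence of binding.

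At 2 h none of these genes passed the threshold in either species. In mouse, limma called 0 of 10, and 1 of 10 (Il6ra) had an unadjusted p below 0.05, against 7.71% of all genes. Of all mouse genes, 0.149% were called higher and 0.149% lower at that time. In rat, limma called 0 of 9, and 1 of 9 (Lifr) had an unadjusted p below 0.05, against 7.08% of all genes. Of all rat genes, 0.033% were called higher and 0.033% lower. The median difference over the genes was -0.0017 in mouse, where the median of all genes was -0.0067, and 0.14 in rat, where it was -0.0033.

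At 6 h, 2 of the 10 mouse genes rose, Osmr and Stat3, and none fell. In rat, 4 of the 9 genes rose, Osmr, Socs3, Lif and Stat3, and none fell. The background of calls was 3.21% higher and 4.23% lower among all mouse genes and 2.85% higher and 3.62% lower among all rat genes, so the 20% and 44.4% called higher among these genes lay above it. The genes were chosen with earlier results of these data known, so these shares are not independent evidence. An unadjusted p below 0.05 was found for 7 of 10 genes in mouse (23.3% of all genes) and 6 of 9 in rat (22.1% of all genes). The median difference over these genes was 0.27 in mouse and 0.36 in rat, against -0.017 for all genes in both species. Groups that did not overlap, with every pMCAO animal above every sham, were found for 6 mouse genes (Osmr, Stat3, Socs3, Il6, Il6ra and Clcf1) and 4 rat genes (Osmr, Socs3, Lif and Stat3), while 10.7% of all mouse genes and 9.73% of all rat genes were separated in that direction.

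**Figure D1:**
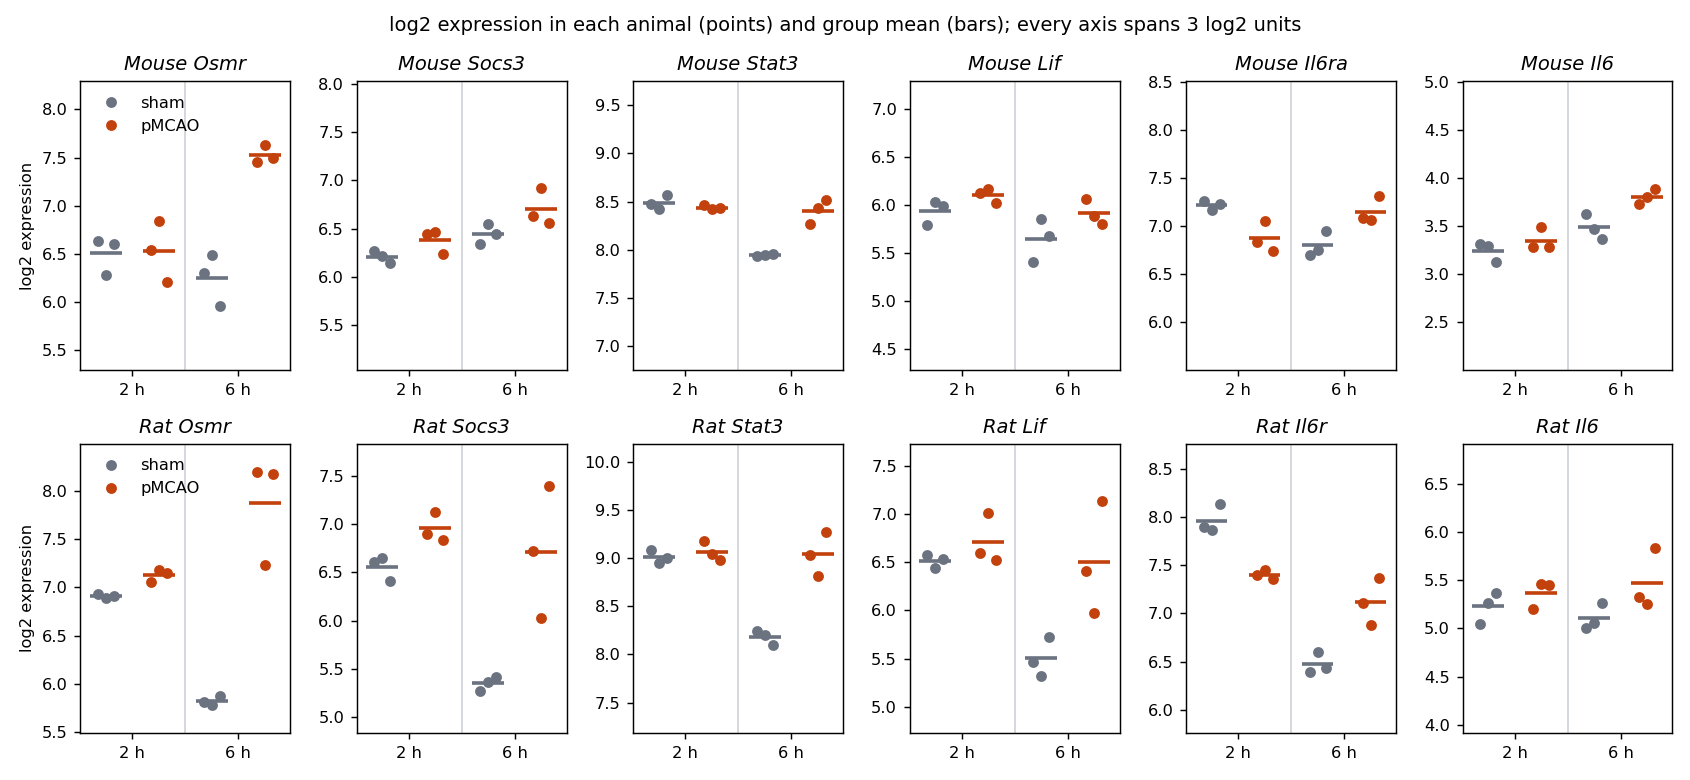
log2 expression of 6 genes in each animal, mouse in the top row and rat in the bottom row, at 2 h and 6 h. Grey points are sham animals, orange points pMCAO animals and bars group means (n = 3), and every axis spans 3 log2 units. At 6 h every pMCAO animal lies above every sham for Osmr, Socs3, Stat3 and the IL-6 receptor gene (Il6ra or Il6r) in both species. For mouse Socs3 the gap is only 0.01. The rat Socs3 and Lif points of the pMCAO group spread more widely than the mouse points.

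Among the ligands, Lif was the one that passed the threshold, in rat at 6 h. Lif encodes leukaemia inhibitory factor. Rat Lif was at 6.41, 5.97 and 7.14 in the 3 pMCAO animals and at 5.47, 5.32 and 5.72 in the 3 shams at 6 h. All pMCAO values lay above all shams, by 0.25 at the narrowest, and pMCAO replicate 2 was the lowest of its group. The rise was 1.00 ± 0.23 (SE), or 2.00-fold (95% confidence interval 0.50 to 1.51 on the log2 scale, limma adjusted p = 0.0257). This call was lost without pMCAO replicate 1 (adjusted p = 0.0532), sham replicate 1 (0.0821) or sham replicate 2 (0.0987), and with the 6 arrays of 6 h alone (0.102), while the difference stayed between 0.69 and 1.27 with an animal left out. At 2 h rat Lif was at 6.60, 7.01 and 6.52 after pMCAO and at 6.58, 6.44 and 6.53 in sham. Those groups overlapped, with a difference of 0.19 ± 0.23, and without pMCAO replicate 2, the highest animal, it was 0.04.

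Mouse Lif overlapped between groups at both times. At 6 h it was at 6.06, 5.89 and 5.80 after pMCAO and at 5.41, 5.85 and 5.68 in sham, a difference of 0.27 ± 0.11 that did not pass (limma adjusted p = 0.169). At 2 h the difference was 0.16 ± 0.11 (adjusted p = 0.786).

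Il6 encodes the founding member of the family. In mouse at 6 h it was at 3.73, 3.80 and 3.88 after pMCAO and at 3.63, 3.47 and 3.37 in sham. The groups were separate by 0.10 and the difference of 0.31 ± 0.09 did not pass (limma adjusted p = 0.0524). The mouse Il6 signal was below the lower quartile of its array in all 12 mouse arrays, and the deposited values carry no detection calls. The call depended on the scale: Il6 passed after quantile normalization (adjusted p = 0.0441) and after median centring (0.0490), and also without sham replicate 1 (0.0408). In rat at 6 h Il6 was at 5.33, 5.25 and 5.83 after pMCAO and at 5.00, 5.06 and 5.26 in sham, with overlapping groups and a difference of 0.36 ± 0.15 (adjusted p = 0.165). At 2 h, 5 of the 6 rat Il6 values lay below the lower quartile of their array. At 2 h the difference was 0.11 ± 0.09 in mouse and 0.14 ± 0.15 in rat.

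Osm and Clcf1 encode 2 further ligands, oncostatin M and cardiotrophin-like cytokine. Neither passed in any comparison. Osm, the ligand of the receptor encoded by Osmr, differed by 0.03 ± 0.09 in mouse and 0.05 ± 0.11 in rat at 2 h, and by -0.0033 ± 0.09 in mouse and 0.11 ± 0.11 in rat at 6 h. The 95% confidence intervals at 6 h ran from -0.20 to 0.19 in mouse and from -0.14 to 0.35 in rat, which bounds the RNA difference that 3 animals a group could leave unseen. Clcf1 at 6 h was at 5.76, 5.59 and 5.72 after pMCAO and at 5.55, 5.57 and 5.43 in sham mice. These groups lay apart by 0.02, the difference was 0.17 ± 0.08 and it did not pass (limma adjusted p = 0.194). In rat at 6 h the Clcf1 difference was 0.18 ± 0.13 (adjusted p = 0.461).

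Osmr, the signalling subunit of the oncostatin M receptor, rose at 6 h in both species and had the largest difference of these genes in each. In mouse it was at 7.45, 7.63 and 7.50 after pMCAO and at 6.30, 6.49 and 5.96 in sham at 6 h. The lowest pMCAO animal lay 0.96 above the highest sham. The rise was 1.28 ± 0.17, or 2.42-fold (95% confidence interval 0.91 to 1.64, limma adjusted p = 0.00216). In rat it was at 8.20, 7.23 and 8.18 after pMCAO and at 5.81, 5.78 and 5.87 in sham. Here the lowest pMCAO animal, replicate 2, still lay 1.36 above the highest sham. The rise was 2.05 ± 0.19, or 4.14-fold (interval 1.63 to 2.47, adjusted p = 0.000188), and 2.37 without replicate 2. Both calls held in all 15 alternative settings.

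At 2 h Osmr had not passed in either species. Mouse Osmr was at 6.54, 6.84 and 6.21 after pMCAO and at 6.64, 6.28 and 6.60 in sham, with overlapping groups and a difference of 0.02 ± 0.17 (limma adjusted p = 0.985). Rat Osmr was at 7.06, 7.18 and 7.15 after pMCAO and at 6.93, 6.89 and 6.91 in sham. The rat groups were separate by 0.13, with an SD of 0.062 after pMCAO and 0.02 in sham. The difference of 0.22 ± 0.19 did not pass (limma adjusted p = 0.870). Its standard error also holds the spread of the 6 h animals, whose pMCAO SD was 0.55. All pMCAO values lay above all shams for 5.54% of rat genes at that time.

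The receptor for IL-6 itself, Il6ra in mouse and Il6r in rat, lay below sham at 2 h and above sham at 6 h in both species. In mouse at 2 h Il6ra was at 6.84, 7.05 and 6.74 after pMCAO and at 7.26, 7.17 and 7.23 in sham. At 6 h it was at 7.08, 7.06 and 7.31 against 6.70, 6.75 and 6.95. The groups did not overlap at either time, and neither the 2 h difference of -0.34 ± 0.10 (limma adjusted p = 0.344) nor the 6 h difference of 0.35 ± 0.10 (adjusted p = 0.0525) passed. Every pMCAO value lay below every sham for 8.39% of mouse genes at 2 h. The 6 h value passed with a trended, robust variance (adjusted p = 0.0219), after quantile normalization (0.0412), after median centring (0.0474) and with low genes left out (0.0298).

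Rat Il6r at 2 h was at 7.40, 7.45 and 7.36 after pMCAO and at 7.90, 7.86 and 8.13 in sham. At 6 h it was at 7.11, 6.88 and 7.37 against 6.39, 6.60 and 6.43. Both sets of groups were separate, by 0.41 and by 0.28. The 2 h difference of -0.56 ± 0.12 did not pass (limma adjusted p = 0.160, and 0.0305 with array weights), and the 6 h rise of 0.65 ± 0.12, or 1.57-fold, did (95% confidence interval 0.39 to 0.90, adjusted p = 0.00794), although not with the 6 arrays of 6 h alone (adjusted p = 0.0526). The symbols of the mouse and rat genes differ, so their difference between species was not tested.

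The remaining receptor chains did not pass in any comparison. Il6st, which encodes the shared subunit gp130, was at 8.91, 8.78 and 9.02 after pMCAO and at 8.96, 8.93 and 8.96 in sham mice at 6 h. In rat at 6 h it was at 9.47, 9.02 and 9.16 against 9.20, 9.15 and 9.03. Groups overlapped in both, with differences of -0.05 ± 0.08 (limma adjusted p = 0.781) and 0.09 ± 0.10 (adjusted p = 0.668). Lifr, which encodes the receptor of LIF, differed in sign between the species at 6 h. Mouse Lifr was at 8.61, 8.90 and 9.01 after pMCAO and at 8.75, 8.69 and 8.67 in sham, overlapping, with a difference of 0.14 ± 0.09. Rat Lifr was at 8.70, 8.62 and 8.82 against 8.91, 8.89 and 8.88, with every pMCAO animal below every sham and a difference of -0.18 ± 0.07 (adjusted p = 0.176). Rat Lifr was also separate at 2 h, at 9.61, 9.56 and 9.50 against 9.86, 9.73 and 9.69 (-0.20 ± 0.07, adjusted p = 0.568). All pMCAO values lay below all shams for 7.57% of rat genes at 2 h and 14.8% at 6 h.

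Stat3, which encodes the transcription factor that the receptors activate, rose at 6 h in both species. In mouse it was at 8.27, 8.43 and 8.52 after pMCAO and at 7.93, 7.95 and 7.96 in sham. All pMCAO animals lay above all shams, by at least 0.31. The rise was 0.46 ± 0.07, or 1.38-fold (95% confidence interval 0.31 to 0.61, limma adjusted p = 0.00508), and the call was lost in 1 of 15 alternative settings, the fit to the 6 arrays of 6 h alone (adjusted p = 0.0506). In rat it was at 9.03, 8.81 and 9.27 after pMCAO and at 8.24, 8.20 and 8.10 in sham. The rat groups were further apart, by 0.57. The rise was 0.86 ± 0.11, or 1.81-fold (interval 0.63 to 1.09, adjusted p = 0.000937), and its call held in all 15 settings. Leaving out replicate 2, the lowest pMCAO animal, raised it to 0.97. At 2 h the difference was -0.05 ± 0.07 in mouse and 0.06 ± 0.11 in rat.

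Socs3, the feedback inhibitor, rose in rat at 6 h. It was at 6.72, 6.03 and 7.40 after pMCAO and at 5.27, 5.36 and 5.42 in sham. Every pMCAO animal lay above every sham by at least 0.61, and the SD was 0.69 among the pMCAO animals against 0.075 among the shams. The rise was 1.37 ± 0.24, or 2.58-fold (95% confidence interval 0.83 to 1.90, limma adjusted p = 0.00739). It ranged from 1.02 to 1.71 when an animal was left out, with adjusted p up to 0.0334, and missed the threshold with the 6 arrays of 6 h alone (adjusted p = 0.0599). At 2 h rat Socs3 was at 6.90, 7.13 and 6.84 after pMCAO and at 6.61, 6.65 and 6.41 in sham. Those groups were separate by 0.19, with an SD of 0.15 after pMCAO and 0.13 in sham. The difference of 0.40 ± 0.24, whose standard error also holds the wide 6 h spread, did not pass (limma adjusted p = 0.796).

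Mouse Socs3 did not pass at either time. At 6 h it was at 6.63, 6.92 and 6.56 after pMCAO and at 6.34, 6.55 and 6.44 in sham. The groups were separate by 0.01, and the difference was 0.26 ± 0.10 (95% confidence interval 0.04 to 0.48, limma adjusted p = 0.138). A second mouse cluster with the Socs3 symbol was at 4.86, 4.76 and 4.82 after pMCAO and at 4.46, 4.31 and 4.39 in sham at 6 h. It gave a difference of 0.43 ± 0.14 (adjusted p = 0.0904 over 23521 clusters), and 4 of these 6 values lay below the lower quartile of their array. At 2 h mouse Socs3 was at 6.44, 6.46 and 6.24 against 6.27, 6.21 and 6.14, with overlapping groups and a difference of 0.17 ± 0.10 (adjusted p = 0.736).

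**Figure D2:**
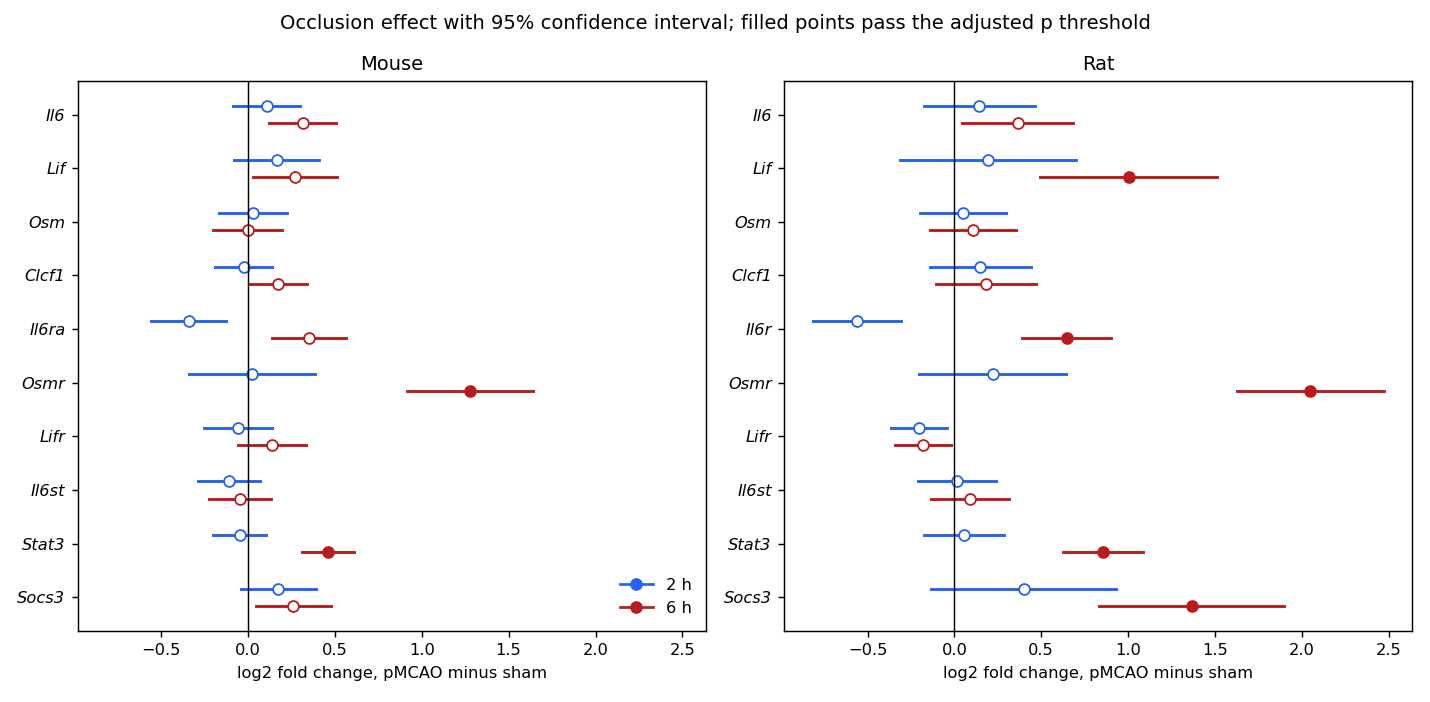
Difference between pMCAO and sham in log2 expression for each gene, mouse on the left and rat on the right, with 95% confidence intervals; blue is 2 h, red is 6 h, and filled points passed the limma adjusted p threshold of 0.05 (n = 3 against 3 animals). The filled points are all at 6 h: Osmr and Stat3 in mouse, and Osmr, Socs3, Lif, Stat3 and Il6r in rat.

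Whether the effect of pMCAO differed between the 2 times was tested as the 6 h difference minus the 2 h difference. The arrays of the 2 times were on different scales. Setting each group against its own shams removes a shift between times, while other differences of scale cannot be told apart from time. Osmr passed in rat, with a 6 h effect 1.83 ± 0.27 above the 2 h effect (95% confidence interval 1.23 to 2.43, limma adjusted p = 0.0203). It was 1 of the 9 rat genes called higher, where 0.165% of all rat genes were called higher and 0.0661% lower. The rat receptor gene Il6r also passed, at 1.21 ± 0.17 (interval 0.85 to 1.57, adjusted p = 0.0141), going from below to above sham. The Osmr call was lost in 9 of 12 fits that left out an animal, with adjusted p up to 0.0721, while its value stayed between 1.67 and 2.15. The Il6r call was lost without 2 h pMCAO replicate 3 (0.0534) or 6 h sham replicate 3 (0.0559). Rat Stat3 gave 0.80 ± 0.15 (adjusted p = 0.0624), Socs3 0.97 ± 0.35 (adjusted p = 0.325) and Lif 0.81 ± 0.33 (adjusted p = 0.391), none of which passed. Without 6 h pMCAO replicate 2, Stat3 (adjusted p = 0.0116) and Socs3 (0.0286) passed too. That animal was the lowest of its group for both, so leaving it out necessarily raises these values.

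In mouse, limma called 0 of 10 genes for the change between times, and 3 had an unadjusted p below 0.05 (14.04% of all genes). These were Osmr at 1.25 ± 0.23 (adjusted p = 0.0649), Stat3 at 0.51 ± 0.10 (adjusted p = 0.0681) and Il6ra at 0.69 ± 0.14 (adjusted p = 0.0730). Of all mouse genes, 0.0857% were called higher and 0.0857% lower. All 3 passed with a trended, robust variance or with low genes left out, and Stat3 also passed without 6 h pMCAO replicate 1 (adjusted p = 0.0367). Mouse Socs3 gave 0.09 ± 0.14 (95% confidence interval -0.22 to 0.39).

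The mouse and rat effects were compared by the difference of their log2 differences over the 14204 symbols measured in both. At 2 h no gene of the 9 passed, 0 had an unadjusted p below 0.05 (3.96% of all), and 0.0141% of all matched symbols were called. At 6 h Socs3 passed, 1 of 9, against 2.27% of all matched symbols. Its effect in mouse was 1.11 ± 0.26 lower on the log2 scale than in rat (mouse minus rat -1.11, 95% confidence interval -1.67 to -0.55, adjusted p = 0.0375 with limma's standard errors). The call was lost in 7 of 12 fits without an animal, with adjusted p up to 0.108, and when the mouse clusters of a symbol were averaged (adjusted p = 0.0535). The difference lay between -1.45 and -0.77 in those 12 fits.

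The effects on Osmr, Lif and Stat3 at 6 h were also larger in rat, but their differences between species did not pass. Mouse minus rat was -0.77 ± 0.26 for Osmr (95% confidence interval -1.30 to -0.25, adjusted p = 0.115), -0.73 ± 0.26 for Lif (adjusted p = 0.153) and -0.40 ± 0.13 for Stat3 (adjusted p = 0.107). Without rat pMCAO replicate 2, the animal with the smallest rat responses, all 3 passed (adjusted p = 0.00391, 0.0274 and 0.0240). Leaving out that animal necessarily widens these differences. Lifr differed in the other direction, by 0.32 ± 0.12 (adjusted p = 0.157). The species also differed in the side of the occlusion, in strain and in array platform, which cannot be told apart from species.

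Other genes of the pathway were counted from lists. Of 5 further ligands measured in each species (Il11, Ctf1, Ebi3 and Il31 in both, Il27 in mouse and Cntf in rat), none passed at either time by limma, and 0 had an unadjusted p below 0.05. Their 6 h differences ran from -0.28 (Ebi3) to 0.11 (Il31) in mouse and from -0.23 (Cntf) to 0.33 (Il11) in rat. Of the further receptor genes, 0 of 3 passed in mouse (Cntfr, Il27ra and Il31ra), with 1 at an unadjusted p below 0.05 at 6 h and 0 at 2 h. In rat 1 of 5 passed at 6 h, which was Il6r, and Cntfr, Il11ra1, Il27ra and Il31ra did not. Il31ra, a receptor chain for interleukin-31, was at 0.34 ± 0.10 in mouse (limma adjusted p = 0.069) and -0.31 ± 0.10 in rat (adjusted p = 0.0894).

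The kinases and other STAT genes did not pass either, 0 of 7 in each species at 2 h and at 6 h (Jak1, Jak2, Tyk2, Stat2, Stat5a, Stat5b and Stat6), and limma's unadjusted p was below 0.05 for 2 in each species at 6 h and 0 at 2 h. Jak2, one of the kinases bound to gp130, had the largest difference of them at 6 h, 0.22 ± 0.08 in mouse (limma adjusted p = 0.115) and 0.45 ± 0.22 in rat (adjusted p = 0.248). Of 12 other SOCS genes and pathway inhibitors, 0 passed in mouse at either time (4 at an unadjusted p below 0.05 at each) and 0 in rat at 2 h (2 at that level). At 6 h in rat, Socs2 rose by 0.35 ± 0.09 (adjusted p = 0.0427) and Socs6 fell by 0.40 ± 0.09 (adjusted p = 0.0215). Rat Socs2 was at 8.03, 7.86 and 8.00 after pMCAO against 7.65, 7.71 and 7.49 in sham, and rat Socs6 at 6.47, 6.43 and 6.61 against 6.90, 6.96 and 6.84, with separate groups in both. Of all rat genes at 6 h, 2.85% were called higher and 3.62% lower. All pMCAO values lay above all shams for 9.73% of them and below for 14.8%. Adam10 and Adam17, proteases that release receptor ectodomains, did not pass in mouse, nor did Adam17 in rat, and 1 of these (mouse Adam10 at 6 h, -0.18 ± 0.06) had an unadjusted p below 0.05.

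Many of the genes known to respond to STAT3 rose at 6 h. In mouse 16 of the 30 measured rose and none fell, with a median difference of 0.50 against -0.017 for all genes, of which 3.21% were called higher. In rat 11 of 24 rose and none fell, with a median of 0.56, where 2.85% of all genes were called higher. At 2 h, 2 of 30 passed in mouse (0.149% of all genes were called higher), Gadd45g (1.24 ± 0.12, limma adjusted p = 0.000909) and Nfil3 (0.56 ± 0.10, adjusted p = 0.0446), and limma called 0 of 24 in rat, where 5 had an unadjusted p below 0.05. Genes of this list also respond to other transcription factors, so the list does not single out STAT3. It was also chosen with earlier results of these data known, so its counts are not independent evidence. Of the 24 genes measured in both species, 14 rose in mouse and 11 in rat, and 8 rose in both, which is 57.1% of the mouse genes and 72.7% of the rat genes. The difference was larger in rat for 16 of the 24.

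Gadd45g, a stress-response gene of the growth arrest family, had the largest rise of the list in both species at 6 h. It was at 8.21, 8.38 and 8.27 after pMCAO and at 6.11, 6.33 and 6.36 in sham mice, a rise of 2.02 ± 0.12 (limma adjusted p = 1.15e-05). In rat it was at 9.08, 8.21 and 9.07 against 5.32, 5.71 and 5.47, a rise of 3.29 ± 0.39 (adjusted p = 0.000713). Among the mouse genes past the threshold, the next largest rises were those of Gfap and Vim, which encode intermediate filament proteins of astrocytes. Mouse Gfap was at 9.16, 9.38 and 9.55 against 8.07, 8.74 and 8.60, a rise of 0.89 ± 0.19 (adjusted p = 0.0194), and Vim rose by 0.79 ± 0.11 (adjusted p = 0.00361). In rat neither passed, Gfap at 0.37 ± 0.22 and Vim at 0.09 ± 0.18. Among the rat genes past the threshold, the next largest rises were those of Ccl2, which encodes a chemokine that attracts monocytes, at 2.64 ± 0.49 (adjusted p = 0.00929) and Junb, an AP-1 subunit, at 2.46 ± 0.29 (adjusted p = 0.000706). Rat Ccl2 was at 7.93, 7.13 and 9.89 after pMCAO against 5.76, 5.83 and 5.45 in sham, again with replicate 2 lowest and replicate 3 highest, as for Socs3.

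The counts of this list moved both ways with the setting. With an animal left out the 6 h count ran from 10 (without pMCAO replicate 2) to 16 in mouse, against 16 with all animals, and from 8 to 14 in rat, against 11. With the 6 arrays of 6 h alone it was 5 in mouse and 4 in rat, and the highest counts over the settings were 18 and 15. At 2 h the mouse count was 1 without pMCAO replicate 2, pMCAO replicate 3 or any of the 3 shams.

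**Figure D3:**
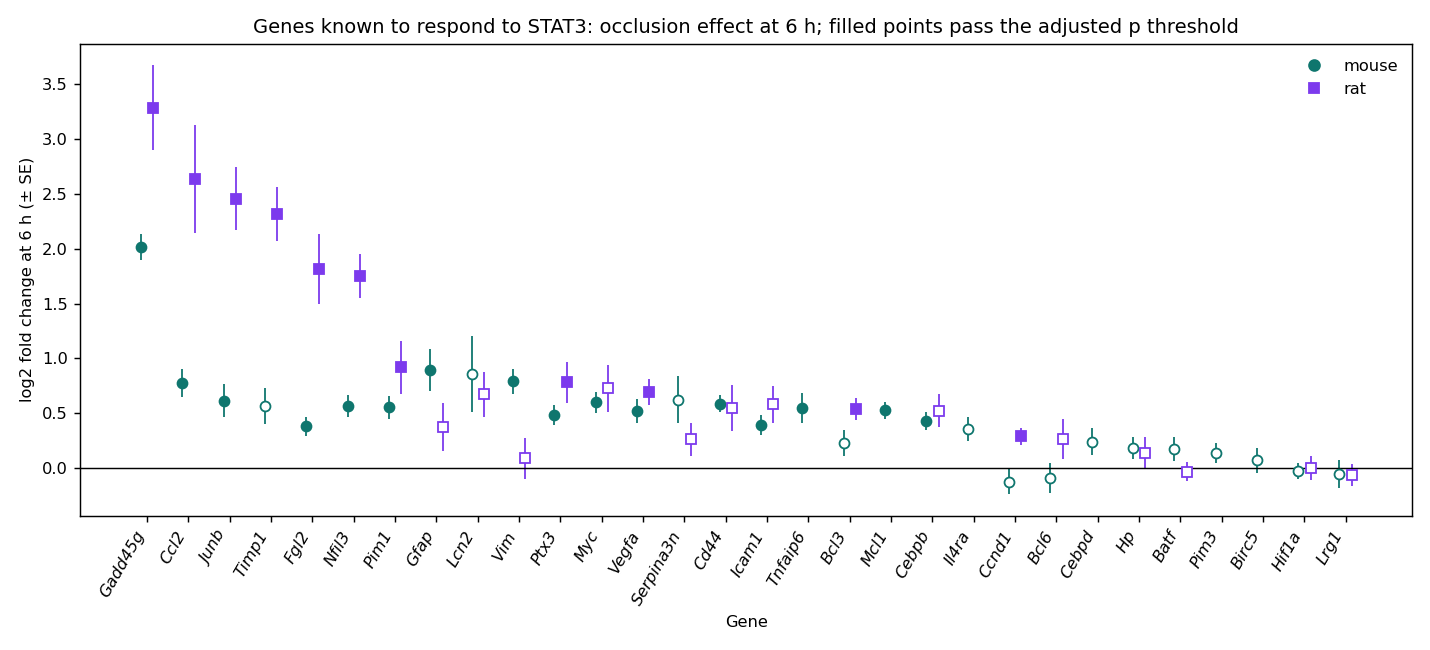
Difference between pMCAO and sham at 6 h in log2 expression, with its standard error, for each gene of the STAT3-responsive list, mouse as green circles and rat as purple squares; filled symbols passed the limma adjusted p threshold of 0.05 (n = 3 against 3 animals). Genes are sorted by the larger difference, from Gadd45g at 2.02 in mouse and 3.29 in rat on the left. For 6 genes there is a mouse point only, because no rat cluster carried that gene as its only symbol.

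The genes whose pattern over the 12 arrays was most like that of Osmr and Socs3 were taken by the root mean square difference of log2 values, each array minus the mean of the shams of its time. For mouse Osmr these were Gpr84 (0.215), Cyp1b1 (0.217) and Snora31 (0.246), where the median over all genes was 0.684. For rat Osmr they were Mt1 (0.207), C3h11orf96 (0.221) and Nfil3 (0.225), with a median of 1.07. For mouse Socs3 they were Nsmce3 (0.0744), Lcn10 (0.0783) and 4930433N12Rik (0.0810), with a median of 0.233, and for rat Socs3 Lsm11 (0.132), Csrnp1 (0.156) and Spp1 (0.164), with a median of 0.787. Nfil3 was the gene of these that was also in the STAT3-responsive list. The values describe likeness in these arrays and carry no test.

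Markers of cell types that the tissue piece could hold moved with the occlusion in some lists. Mean log2 levels of neutrophil markers were higher after pMCAO in both species at both times without overlap, at 4.85 to 5.15 against 4.75 to 4.80 in mouse and at 5.11 to 5.14 against 4.66 to 4.80 in rat at 6 h. Of them 1 of 9 passed in mouse at 6 h (Retnlg, 1.19 ± 0.16, limma adjusted p = 0.00302) and 1 of 8 in rat (S100a9, 0.99 ± 0.20, adjusted p = 0.0142). In mouse at 6 h 5 of the 9 lay above sham and Camp, Cxcr2, Mmp9 and Ngp below it, by -0.06 to -0.15, with a list median of 0.093, while in rat all 8 lay above, with a median of 0.34. Monocyte markers ranged from 5.77 to 5.89 against 5.51 to 5.68 in rat at 6 h, where 1 of 4 passed (Ccr2, 0.58 ± 0.12, adjusted p = 0.0130), and overlapped in mouse. In that rat list 3 of the 4 lay above sham, F13a1 by only 0.05, and Vcan lay below it at -0.18, with a list median of 0.245. Microglia markers were lower, at 6.98 to 7.18 against 7.33 to 7.35 in mouse and 7.09 to 7.34 against 7.51 to 7.61 in rat at 6 h. Of them 3 of 6 fell in mouse (P2ry12, Siglech and Csf1r) and 2 of 5 in rat (P2ry12 and Tmem119). Among all genes at 6 h, 3.21% were called higher and 4.23% lower in mouse, and 2.85% and 3.62% in rat. The part of these markers in the differences of Osmr, Socs3, Lif and Stat3 was not tested.

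Among the other lists at 6 h, astrocyte markers had 1 of 7 past the threshold in mouse (Gfap, which is also in the STAT3-responsive list) and 0 of 6 in rat. At an unadjusted p below 0.05 by limma were 2 in mouse and 0 in rat. In mouse 5 of the 7 lay above sham, with a list median of 0.023, while Slc1a2 (-0.20 ± 0.06) and Gja1 (-0.20 ± 0.11) lay below it. The means of the astrocyte list overlapped, at 9.38 to 9.56 against 9.22 to 9.47 in mouse and 10.44 to 10.61 against 10.36 to 10.57 in rat. Endothelial markers had 1 of 6 past it in mouse (Cdh5, 0.58 ± 0.14, limma adjusted p = 0.0277) and 0 of 4 in rat (3 at that unadjusted level). The list had no common direction, with 4 of 6 below sham in mouse (Tek lowest, at -0.37 ± 0.14) and 2 of 4 in rat, list medians of -0.065 and -0.08, and overlapping means. Striatal neuron markers had 2 of 4 lower in mouse, Drd2 at -1.64 ± 0.41 (adjusted p = 0.0355) and Tac1 at -0.75 ± 0.18 (adjusted p = 0.0335), with list means of 7.01 to 7.24 against 7.36 to 8.60. In rat 0 of 6 of these passed (1 at the unadjusted level), and the means lay above sham, at 6.56 to 6.60 against 6.40 to 6.51. The neuron, oligodendrocyte, pericyte, T cell, meningeal fibroblast and choroid plexus lists held 6, 4, 4, 4, 6 and 4 measured markers in mouse. In rat they held 6, 4, 4, 4, 6 and 5. None of these markers passed in limma's test in either species at 6 h. At the unadjusted level were 9 in mouse and 3 in rat, where 23.3% and 22.1% of all genes reached that level. Even so, in mouse at 6 h the neuron means all lay below sham, at 10.91 to 10.93 against 10.98 to 11.01, and the oligodendrocyte means all above, at 8.86 to 8.92 against 8.59 to 8.83 (4 of 4 markers higher, 3 at the unadjusted level). Both overlapped between groups in rat at 6 h. The part of these lists in the 6 h differences was not tested either.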

How the data were processed

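For each species the authors deposited log2 expression values in 1 table of 12 arrays, rounded to 2 decimals. The tools oligo and limma are named in the submitters' processing notes, and the normalization is not given in the sources used here. RNA integrity numbers were above 7.5 and labelling used the WT PLUS kit, per the labels' protocols. Groups, times and replicates follow the titles, because the time characteristic is 2 h throughout. The values carry no detection calls and name no genome build.

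Genes were the clusters with a single platform symbol, taking the cluster with the highest mean where a symbol had several. Group means were fitted to the 12 arrays of a species with limma 3.58.1 (R 4.3.3), leaving 8 residual degrees of freedom, with two-sided moderated tests and Benjamini-Hochberg adjustment over all genes. An exact permutation test of 3 against 3 cannot go below 0.1. Species effects were compared with Welch-Satterthwaite degrees of freedom over 14204 symbols. The comparisons were tested on simulated arrays in which a gene had the same spread in every group. That does not check calls where the groups spread unequally, as for rat Socs3 at 6 h. All 10 genes are described. Of each pathway list, at most 3 genes past the threshold are named per species and time, plus the genes of lists of 8 or fewer, while Adam10, the named cell type markers and unadjusted counts were singled out after their values were seen. The genes and lists were chosen with earlier results of these data known. Alternatives covered the variance model, array weights, normalization, replicate block, several clusters of a symbol, low genes (mean under the 25th percentile), the 6 arrays of a time alone, and each animal left out.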

Additional observations from a re-analysis of the deposited data

Results flagged for a closer look

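In rat, the effect of pMCAO at 6 h was 1.83 ± 0.27 above that at 2 h for Osmr and 1.21 ± 0.17 above it for Il6r on the log2 scale, each past the threshold in limma's test of the difference between times (adjusted p = 0.0203 and 0.0141). The different array scales of the 2 times cannot be fully told apart from time. The effect on Socs3 at 6 h differed between the species, with mouse minus rat at -1.11 ± 0.26 (adjusted p = 0.0375). With an animal left out, the Osmr call was lost in 9 of 12 fits, the Il6r call in 2 of 12 and the Socs3 call in 7 of 12, and the calls of Osmr and Il6r were also lost with the replicate number as a block (adjusted p = 0.0651 and 0.0829).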

How the results depend on the processing

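Of 566 recomputed differences of the genes at 2 h and 6 h, 551 kept their direction, and the 15 that did not were of genes far from the threshold. Many of the 566 could not change direction. Another variance model, low genes left out, the 6 arrays alone and the replicate block leave the difference of the group means as it was. The count of 551 is therefore not a measure of stability. The calls of Osmr in both species and Stat3 in rat at 6 h held in all alternatives. In mouse at 6 h the count of 2 genes past the threshold was 4 after quantile normalization, 4 after median centring and 1 with the 6 arrays of 6 h alone. Il6ra was also added with a trended, robust variance and with low genes left out, and Il6 without sham replicate 1. In rat at 6 h the count of 4 was 2 with the 6 arrays alone, and Lif was lost without pMCAO replicate 1, sham replicate 1 or sham replicate 2. For the change between times, the mouse count of 0 was 3 with a trended, robust variance, 3 with low genes left out and 0 to 1 with an animal left out. The rat count of 1 was 2 with a trended, robust variance, 2 with array weights, 2 with low genes left out and 0 to 3 with an animal left out. For the species difference at 6 h the count of 1 was 2 with a trended, robust variance, 0 with clusters averaged and 0 to 4 with an animal left out. The 6 arrays and left-out animals leave fewer residual degrees of freedom and also change the estimate of the spread. The cause of these changes of count was not tested. Small differences changed sign. Osm in mouse at 6 h was 0.0069 with array weights, and the mouse minus rat difference of Lif at 2 h was 0.031 with them.

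With an animal left out, these ranged as follows. In mouse at 2 h, Osmr went from -0.13 to 0.18, Clcf1 from -0.088 to 0.032 and Osm from -0.042 to 0.063. In mouse at 6 h, Osm went from -0.082 to 0.063 and Il6st from -0.105 to 0.015. In rat, Il6st went from -0.018 to 0.045 and Osm from -0.045 to 0.14 at 2 h, and Il6st from -0.037 to 0.19 at 6 h. For the change in mouse, Socs3 went from -0.022 to 0.16 and Lif from -0.012 to 0.21. The mouse minus rat difference of Lif at 2 h went from -0.125 to 0.12.

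The same-numbered pMCAO and sham animals of rat replicate 2 at 2 h deviated together (correlation 0.33). All other same-numbered animals had correlations from -0.12 to 0.07. The labels do not say that the numbers pair animals, and the numbers were not taken as pairs in the main fit. With the replicate number as a block, 0 rat genes passed for the change between times in place of 1, and Il6r was lost as well (adjusted p = 0.0829), while the 6 h counts of 2 in mouse and 4 in rat were unaltered and no other call of these genes changed. Signals below the lower quartile of their array, as for mouse Il6, limit what can be said of those genes.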
